A study of Homo sapiens with 6 samples.

Results

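The unfolded protein response and the integrated stress response were followed through 32 named genes in AGS, an established human line from a gastric adenocarcinoma. Each gene was represented by the transcript cluster (the set of probes of the Affymetrix Human Gene 1.0 ST array that reads one transcript unit) with the highest mean among those paired with exactly 1 gene symbol, and all 32 genes had one, of 18417 genes in the tested table. One set of cells received an siRNA that targets CTNNB1 (which encodes beta-catenin), and the other a non-targeting control siRNA. Both were grown in DMEM-F12 with serum, RNA was taken 48 hours after transfection, and each siRNA has 3 arrays that the titles call biological replicates. No untransfected cells were analysed here, and the siRNA sequences were not used here.

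In a stressed cell, kinases that phosphorylate the translation factor eIF2 slow protein synthesis while the mRNA of the transcription factor ATF4 is translated more, and ATF4 then switches on genes for amino acid synthesis, amino acid uptake and redox balance. Unfolded proteins in the endoplasmic reticulum (ER) engage the sensors PERK, IRE1 and ATF6, of which PERK is one of the eIF2 kinases and the others raise ER chaperones, folding enzymes and degradation factors. Secretory epithelia, the gastric lining among them, carry a high load of ER folding. The genes are given here as 2 arms: 16 genes of the ATF4 type, with PPP1R15A counted among them, and 16 genes of ER folding, ER-associated degradation and the ER sensors.

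CTNNB1 itself was 10.27, 10.78 and 10.58 on the log2 scale on CTNNB1 siRNA replicates 1 to 3, against 11.92, 11.76 and 11.75 on control siRNA replicates 1 to 3. The log2 difference was -1.27 (SE 0.17), with the groups apart, which leaves 41.5% of the control level, and limma's adjusted p was 0.232. Array medians lay between 5.38 and 5.46 on the log2 scale. CTNNB1 siRNA replicate 1 stood apart from the rest, with Pearson correlations of 0.962 to 0.965 across clusters with the other arrays. EPCAM, a surface marker of epithelium, was between 11.34 and 11.66 on all 6 arrays, and PTPRC, which marks blood cells, between 2.60 and 2.79. LYZ, the lysozyme gene listed here among blood cell markers, was between 12.45 and 13.16. It is also made by gastric epithelium. Of the marker genes measured, 4 of 7 for blood cells and 7 of 8 for fibroblasts and endothelium lay among the dimmest 40% of clusters. The 8 epithelial markers deviated from their control mean by 0.58, 0.28 and 0.27 on average on CTNNB1 siRNA replicates 1 to 3 and by 0.082, -0.031 and -0.051 on control siRNA replicates 1 to 3. Their part in the results was not tested.

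None of the 32 genes passed an adjusted p of 0.05 in limma, where 0.00514% of the 19460 transcript clusters did. Their adjusted p-values lay between 0.816 and 0.998. At an unadjusted p under 0.05 there was 1 of 32, EIF2AK3, beside 5.64% of all clusters tested. The ATF4-type genes were higher after CTNNB1 siRNA for 12 of 16, with a median log2 difference of 0.23, and the ER genes for 10 of 16, with a median of 0.089, beside -0.0052 over all genes. The ATF4-type median was 0.031 without CTNNB1 siRNA replicate 1, 0.051 without control siRNA replicate 1 and -0.13 without both, and the ER median was 0.041, 0.10 and 0.019 under the same choices. RMA, the authors' normalization, gives all arrays one distribution of intensities, so these values cannot show a shift common to every transcript. In bulk RNA, a change in every cell and a change in the share of responding cells cannot be told apart.

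What stood out was the spread between arrays of one group. The median standard deviation within a group was 0.47 for the ATF4-type genes and 0.24 for the ER genes, beside 0.21 over all genes. CHAC1 and SLC7A11 varied more within their groups than 99.9% of genes, PSAT1 more than 99.2% and CRELD2 more than 99.0%. With 3 arrays per group this left wide intervals: the 95% confidence interval of the log2 difference lay inside -1 to 1 for 8 of the 16 ATF4-type genes and for 13 of the 16 ER genes. For the others, a 2-fold difference in one direction or both was not excluded by the interval.

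**Figure D1:**
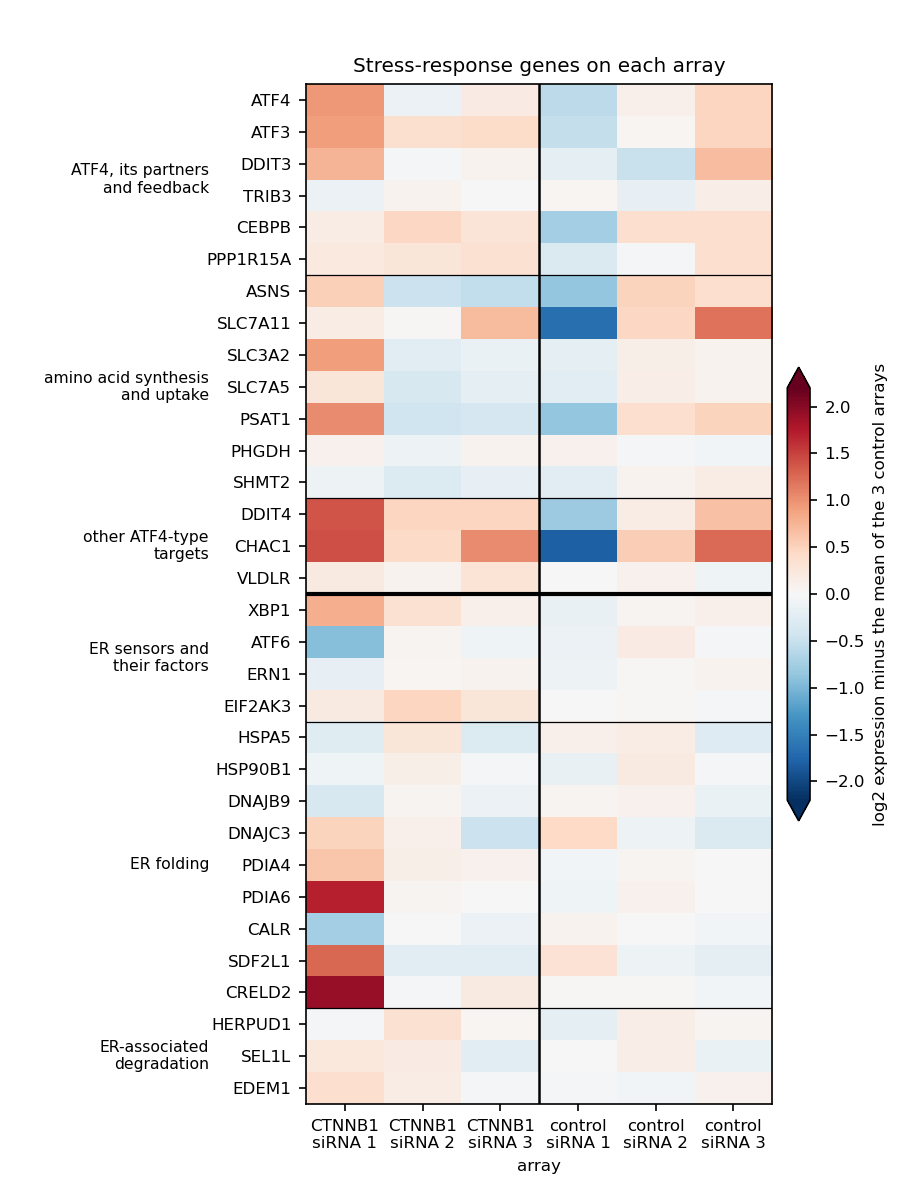
Each row is a gene and each column an array. Colour gives the log2 expression minus the mean of the 3 control siRNA arrays for that gene, and the heavy horizontal line parts the ATF4-type genes from the ER genes. CHAC1 and SLC7A11 are darkest blue on control siRNA replicate 1 (-1.80 and -1.65), while PDIA6 and CRELD2 are darkest red on CTNNB1 siRNA replicate 1 (1.71 and 1.92).

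Among the regulators of the ATF4 arm, ATF4 was 10.96, 9.86 and 10.17 on CTNNB1 siRNA replicates 1 to 3, against 9.42, 10.11 and 10.46 on control siRNA replicates 1 to 3. The groups overlapped, with the highest value on CTNNB1 siRNA replicate 1 and the lowest on control siRNA replicate 1. Its log2 difference was 0.33 (95% interval -0.45 to 1.12), and 0.020 without CTNNB1 siRNA replicate 1 or 0.047 without control siRNA replicate 1. A second ATF4 cluster, dimmer and also paired with this symbol alone, gave 8.14 ± 0.34 after CTNNB1 siRNA and 8.19 ± 0.29 after control siRNA (SD, n = 3 each). Its difference of -0.052 had the opposite sign, and it was lowest on CTNNB1 siRNA replicate 1 (7.75), where the first cluster was highest. ATF4 also acts through a gain in translation of its mRNA, which expression arrays do not measure.

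ATF3, a stress-induced repressor and activator of the same bZIP family, was 6.71, 6.13 and 6.18 on the CTNNB1 siRNA arrays, against 5.27, 5.82 and 6.26 on the control siRNA arrays. It was 1.47-fold higher, a log2 difference of 0.56 (95% interval -0.071 to 1.18), and limma gave it an unadjusted p of 0.0752. Only control siRNA replicate 3 reached the CTNNB1 siRNA values, and the difference was 0.30 without control siRNA replicate 1. DDIT3, which encodes the death-promoting factor CHOP, was 7.46, 6.68 and 6.79 after CTNNB1 siRNA and 6.53, 6.23 and 7.40 after control siRNA. Its groups overlapped, and its difference of 0.26 was 0.018 without CTNNB1 siRNA replicate 1.

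CEBPB, a bZIP partner of ATF4 and CHOP, was 8.16, 8.45 and 8.28 after CTNNB1 siRNA and 7.25, 8.37 and 8.36 after control siRNA. Without control siRNA replicate 1, which held the low value, its difference of 0.30 became -0.066. PPP1R15A, the phosphatase subunit GADD34 that restores translation by removing the phosphate from eIF2, was 8.26, 8.31 and 8.39 against 7.72, 8.01 and 8.42. The control arrays spread more widely than the CTNNB1 siRNA arrays, and the difference of 0.27 was 0.11 without control siRNA replicate 1. TRIB3, a pseudokinase that feeds back on ATF4, stayed between 4.86 and 5.20 on all 6 arrays. Its mean lay below 5.36, the level under which the dimmest 40% of clusters fall. RMA compresses differences there, so the narrow range does not show that its mRNA stayed constant.

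ATF4 switches on the genes of amino acid synthesis and uptake when amino acids run short. Over the 7 such genes the median log2 difference was 0.018, beside a median standard deviation within a group of 0.47. SLC7A11, the cystine importer of system xc-, was 9.87, 9.72 and 10.40 on CTNNB1 siRNA replicates 1 to 3, against 8.04, 10.15 and 10.89 on control siRNA replicates 1 to 3. Control siRNA replicate 1 lay 1.68 below the next lowest array. The log2 difference was 0.30 over all arrays (95% interval -1.17 to 1.76) and -0.53 without that array.

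ASNS, asparagine synthetase, was 9.18, 8.17 and 8.11 after CTNNB1 siRNA and 7.79, 9.14 and 9.01 after control siRNA. The first array of each group sat on the far side of its own group: with all arrays the difference was -0.16 (95% interval -1.11 to 0.79). PSAT1, an aminotransferase of serine synthesis, showed the same arrangement with 10.20, 8.72 and 8.79 against 8.30, 9.52 and 9.66, and a difference of 0.078. When both arrays numbered 1 were left out, a choice made after these values were seen, ASNS differed by -0.93 (SE 0.13) and PSAT1 by -0.83 (SE 0.13). In that limma fit of 2 arrays per group the adjusted p was 0.141 for ASNS and 0.191 for PSAT1, so neither passed.

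SHMT2, the mitochondrial serine hydroxymethyltransferase, was 10.07, 9.88 and 10.01 after CTNNB1 siRNA and 9.94, 10.26 and 10.35 after control siRNA. Its difference of -0.20 (95% interval -0.56 to 0.16) stayed between -0.32 and -0.12 when any 1 array was left out. SLC7A5, the light chain of the large neutral amino acid transporter LAT1, was 10.71, 10.10 and 10.24 against 10.21, 10.60 and 10.53. SLC3A2, the heavy chain CD98 that pairs with both SLC7A5 and SLC7A11, was 10.62, 9.46 and 9.55 against 9.50, 9.82 and 9.77. For both, CTNNB1 siRNA replicate 1 was the highest of the 6 arrays, and without it the differences of -0.094 and 0.18 became -0.28 and -0.19. PHGDH, the first enzyme of serine synthesis, read between 4.88 and 5.09 on every array, below the level of the dimmest 40%.

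CHAC1, which breaks down glutathione and is among the most responsive ATF4 targets, had the widest range of the 32 genes. Its values were 9.98, 8.98 and 9.59 on CTNNB1 siRNA replicates 1 to 3, against 6.76, 9.11 and 9.81 on control siRNA replicates 1 to 3. Control siRNA replicate 1 lay 2.22 below the next lowest array, and the remaining control arrays lay among the CTNNB1 siRNA values. The mean was 9.52 ± 0.50 against 8.56 ± 1.60 (SD, n = 3 each), a log2 difference of 0.95 (95% interval -0.65 to 2.56) that came to 0.055 without control siRNA replicate 1. DDIT4, the mTORC1 inhibitor REDD1, was 10.21, 9.29 and 9.30 after CTNNB1 siRNA and 8.02, 8.99 and 9.46 after control siRNA. Its difference of 0.77 (95% interval -0.13 to 1.68) was 0.37 without control siRNA replicate 1 and 0.066 without both arrays numbered 1. VLDLR, a lipoprotein receptor gene induced through PERK and ATF4, was 3.82, 3.70 and 3.93 against 3.63, 3.71 and 3.53, all in the range of dim clusters.

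**Figure D2:**
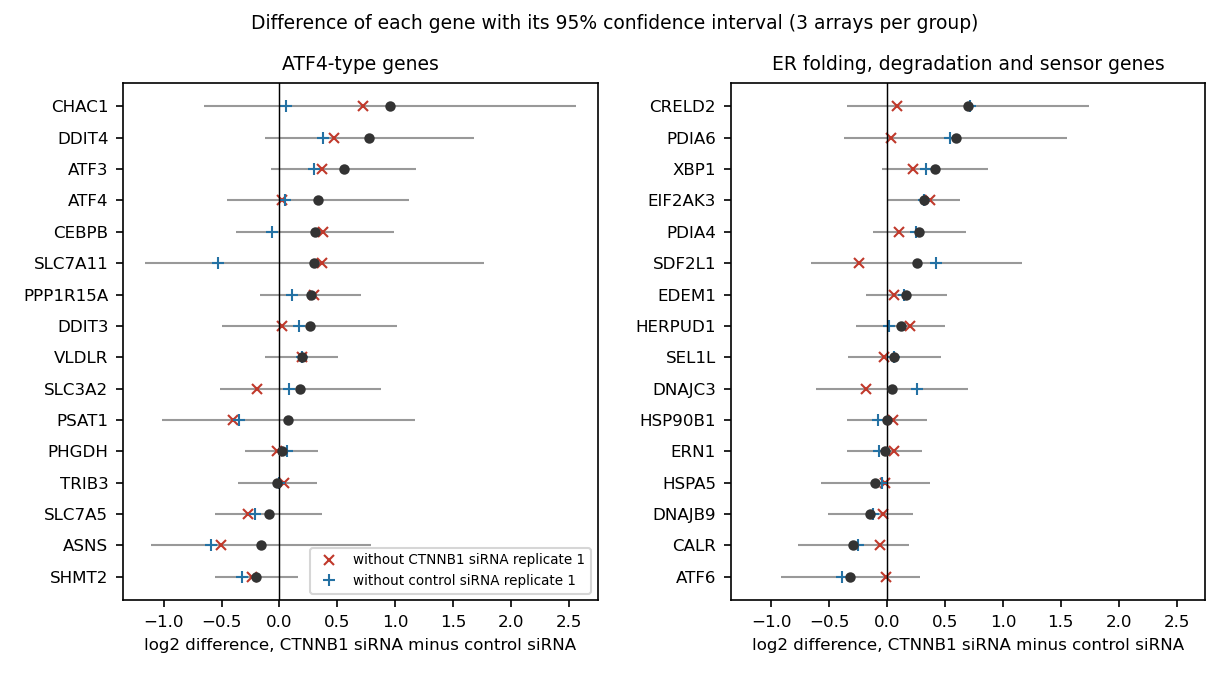
Points give the log2 difference (CTNNB1 siRNA minus control siRNA, 3 arrays each) of the 16 ATF4-type genes on the left and the 16 ER genes on the right, and bars give the 95% confidence interval from limma. Crosses and plus signs give the difference without CTNNB1 siRNA replicate 1 and without control siRNA replicate 1: CHAC1 goes to 0.72 and 0.055, and PDIA6 to 0.033 and 0.54.

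The short promoter elements of the 2 arms are shown to describe the genes. The genes were listed as known members of these pathways, which such elements can help define. The shares below are therefore not independent of the choice of genes. Windows of 250 bases before to 50 bases after the transcription start, from RefSeq on GRCh38.p14, were found for 30 of the 32 genes, in 42 windows. SHMT2 and SLC7A11 had none in the table. The C/EBP-ATF response element, searched as TGATGNAA on both strands, was in 17.4% of the 23 windows of ATF4-type genes and in 5.26% of the 19 windows of ER genes, beside 3.62% of all 35116 windows. The matches are printed on the gene's own strand, 5′ to 3′, with the element in capitals and 8 flanking bases where the window holds them. In CHAC1, SLC3A2 and HERPUD1 the element lies on the opposite strand. A match describes letters only and does not show that the site is bound.
ASNS (chr7:97872469-97872476, minus strand, bases -68 to -61 from the start): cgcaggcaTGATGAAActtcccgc
ATF3 (chr1:212565216-212565223, plus strand, -191 to -184): ggtcaggaTGATGGAAggctgtca
CHAC1 (chr15:40953262-40953269, plus strand, -209 to -202): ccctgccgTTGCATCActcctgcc
SLC3A2 (chr11:62881736-62881743, plus strand, 38 to 45 after the start): aggactccTTACATCAgctcc
HERPUD1 (chr16:56931966-56931973, plus strand, -176 to -169): gcggcgggTTGCATCAgcccgtgc

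On the arrays, ASNS, ATF3, CHAC1 and HERPUD1 were each lowest on control siRNA replicate 1, as were 20.1% of all genes. ASNS, ATF3, CHAC1 and SLC3A2 were each highest on CTNNB1 siRNA replicate 1, as were 24.6% of all genes. SLC3A2 was lowest on CTNNB1 siRNA replicate 2 by 0.040 and highest on CTNNB1 siRNA replicate 1 by 0.80. HERPUD1, an ER gene, was highest on CTNNB1 siRNA replicate 2 and lay between 8.69 and 9.24 on all 6 arrays.

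Among the ER sensors, EIF2AK3, the gene of PERK, was 7.42, 7.69 and 7.49 on CTNNB1 siRNA replicates 1 to 3, against 7.22, 7.24 and 7.19 on control siRNA replicates 1 to 3. Every CTNNB1 siRNA array lay above every control array. The mean was 7.53 ± 0.14 against 7.22 ± 0.026 (SD, n = 3 each), a 1.25-fold difference. The log2 difference was 0.32 (SE 0.14, limma adjusted p = 0.816) and stayed between 0.24 and 0.37 when any 1 array was left out. The groups did not overlap in the higher direction for 3 of the 32 genes, beside 6.81% of all clusters tested, and in the lower direction for 0 of 32, beside 6.8%. The 2-sided exact permutation test of 3 arrays against 3 cannot give a p below 0.1.

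XBP1, the transcription factor that IRE1 activates by splicing its mRNA, was the second of these genes, with 10.59, 10.12 and 9.89 against 9.63, 9.83 and 9.89. The lowest CTNNB1 siRNA array exceeded the highest control array by less than the second decimal shows. Its log2 difference was 0.42 (95% interval -0.043 to 0.88) and 0.22 without CTNNB1 siRNA replicate 1. The cluster does not tell spliced from unspliced XBP1. ATF6, the membrane-bound factor of the third branch, was 9.38, 10.38 and 10.22 after CTNNB1 siRNA and 10.18, 10.49 and 10.27 after control siRNA. The difference of -0.32 rested on CTNNB1 siRNA replicate 1 and was -0.014 without it. ERN1, the gene of IRE1, lay between 6.26 and 6.51 on all arrays (log2 difference -0.019, 95% interval -0.34 to 0.31).

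The ER chaperones and folding enzymes were higher for 5 of 9 genes and lower for 4, with a median log2 difference of 0.044. HSPA5, the chief ER chaperone BiP, was 11.58, 12.12 and 11.56 on CTNNB1 siRNA replicates 1 to 3, against 11.98, 12.01 and 11.58 on control siRNA replicates 1 to 3. Its log2 difference was -0.10 (95% interval -0.57 to 0.37). HSP90B1, the ER chaperone GRP94, was 12.08, 12.31 and 12.15 against 12.02, 12.38 and 12.14, a difference of -0.0016 (95% interval -0.35 to 0.35). The groups overlapped for both genes.

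PDIA6, a disulphide isomerase that also damps IRE1 and PERK, was 12.85, 11.20 and 11.14 after CTNNB1 siRNA and 11.04, 11.23 and 11.14 after control siRNA. A single array, CTNNB1 siRNA replicate 1, exceeded the next by 1.62, and the difference of 0.59 was 0.033 without it. CRELD2, a secreted ER stress protein, was 8.10, 6.17 and 6.38 against 6.21, 6.21 and 6.13. The same array exceeded the next by 1.72, and the difference of 0.70 was 0.089 without it. Such gaps on this array were not particular to ER genes. Of 18417 genes, it was the highest by at least 1 on the log2 scale for 312 and the lowest by at least 1 for 406. Among the 16 ER genes these counts were 2 and 0. SDF2L1, a cofactor of BiP, was 7.92, 6.42 and 6.41 against 6.99, 6.55 and 6.45. Its difference of 0.26 became -0.25 without CTNNB1 siRNA replicate 1.

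CALR, the lectin chaperone calreticulin, was lowest on that array, with 10.15, 10.90 and 10.78 after CTNNB1 siRNA and 10.97, 10.89 and 10.83 after control siRNA. Its difference of -0.29 was -0.062 without CTNNB1 siRNA replicate 1. PDIA4, another disulphide isomerase, was 10.91, 10.41 and 10.38 against 10.23, 10.34 and 10.29, and was the third gene whose groups were apart. Its difference of 0.28 was 0.11 without that array. DNAJC3, the BiP cochaperone and PERK inhibitor p58IPK, was 8.43, 8.05 and 7.46 against 8.37, 7.82 and 7.62. Its groups overlapped, with a difference of 0.044. DNAJB9, a BiP cochaperone that restrains IRE1, was 6.34, 6.76 and 6.57 against 6.75, 6.79 and 6.56 (log2 difference -0.14).

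The ER stress response element, CCAAT and CCACG with any 9 bases between them, is the site through which ATF6 with NF-Y raises ER chaperone genes. Searched on both strands, it was in the windows of 6 of the 16 ER genes and 0 of the 14 ATF4-type genes with a window. By window this is 31.6% of 19, beside 0.0769% of all 35116 windows. The unfolded protein response element TGACGTGG was in 0 of the 42 windows of the 32 genes, beside 0.729% of all windows. At so low a share, 0 of 42 does not set these genes apart from all windows. In the further lists described below, TGACGTGG was in 17.1% of 35 windows of ER folding genes and 10.5% of 19 windows of degradation genes. The ER stress response element was in 11.4% and 0% of them. Matches of the ER stress response element in the 32 genes are printed on the gene's own strand with the element in capitals. In CALR, in CRELD2 and in the site of HSP90B1 nearer to the start the element lies on the opposite strand.
HSPA5 (chr9:125241391-125241409, minus strand, bases -66 to -48): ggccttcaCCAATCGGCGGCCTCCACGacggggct
PDIA6 (chr2:10812853-10812871, minus strand, -86 to -68): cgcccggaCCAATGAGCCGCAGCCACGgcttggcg
CRELD2 (chr22:49918554-49918572, plus strand, -80 to -62): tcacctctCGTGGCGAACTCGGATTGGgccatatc
XBP1 (chr22:28800603-28800621, minus strand, -52 to -34): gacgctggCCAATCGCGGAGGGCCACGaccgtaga
HSP90B1, farther site (chr12:103930216-103930234, plus strand, -194 to -176): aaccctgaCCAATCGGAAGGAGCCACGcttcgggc
HSP90B1, nearer site (chr12:103930321-103930339, plus strand, -89 to -71): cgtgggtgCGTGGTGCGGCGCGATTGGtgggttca
CALR (chr19:12938384-12938402, plus strand, -225 to -207): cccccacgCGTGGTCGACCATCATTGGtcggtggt

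Genes with this element did not move as one on CTNNB1 siRNA replicate 1. Relative to their control means, CRELD2 was at 1.92, PDIA6 at 1.71 and XBP1 at 0.81 on that array, while HSP90B1 was at -0.10, HSPA5 at -0.27 and CALR at -0.75. The whole windows of PDIA6 and HSPA5 are printed because one lay above and the other below its control mean there, while both hold the element close to the start.
PDIA6 (chr2:10812736-10813035, minus strand): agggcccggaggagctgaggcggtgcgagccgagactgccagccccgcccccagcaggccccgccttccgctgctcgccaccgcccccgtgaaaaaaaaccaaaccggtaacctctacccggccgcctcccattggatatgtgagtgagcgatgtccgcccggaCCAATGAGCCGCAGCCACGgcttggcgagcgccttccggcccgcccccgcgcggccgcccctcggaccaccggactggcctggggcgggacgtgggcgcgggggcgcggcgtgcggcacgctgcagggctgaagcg
HSPA5 (chr9:125241294-125241593, minus strand): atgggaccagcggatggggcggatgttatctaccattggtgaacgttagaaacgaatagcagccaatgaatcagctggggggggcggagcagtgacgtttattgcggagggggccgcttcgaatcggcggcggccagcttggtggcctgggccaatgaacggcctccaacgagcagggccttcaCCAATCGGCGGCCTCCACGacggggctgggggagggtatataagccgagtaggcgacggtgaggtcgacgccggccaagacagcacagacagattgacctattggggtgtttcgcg

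The 3 genes of ER-associated degradation, which returns misfolded proteins to the cytosol for the proteasome, were each higher after CTNNB1 siRNA by less than their intervals can tell from 0. HERPUD1, a membrane organiser of the degradation complex, was 8.86, 9.24 and 8.95 after CTNNB1 siRNA and 8.69, 9.04 and 8.96 after control siRNA (log2 difference 0.12, 95% interval -0.27 to 0.50). SEL1L, the partner of the ubiquitin ligase HRD1, was 8.77, 8.72 and 8.30 against 8.53, 8.68 and 8.39 (0.061, 95% interval -0.34 to 0.46). EDEM1, which directs mannose-trimmed glycoproteins to degradation, was 7.79, 7.58 and 7.39 against 7.38, 7.37 and 7.52 (0.16, 95% interval -0.19 to 0.51). The groups overlapped for each of them, and each interval lay inside -1 to 1.

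**Figure D3:**
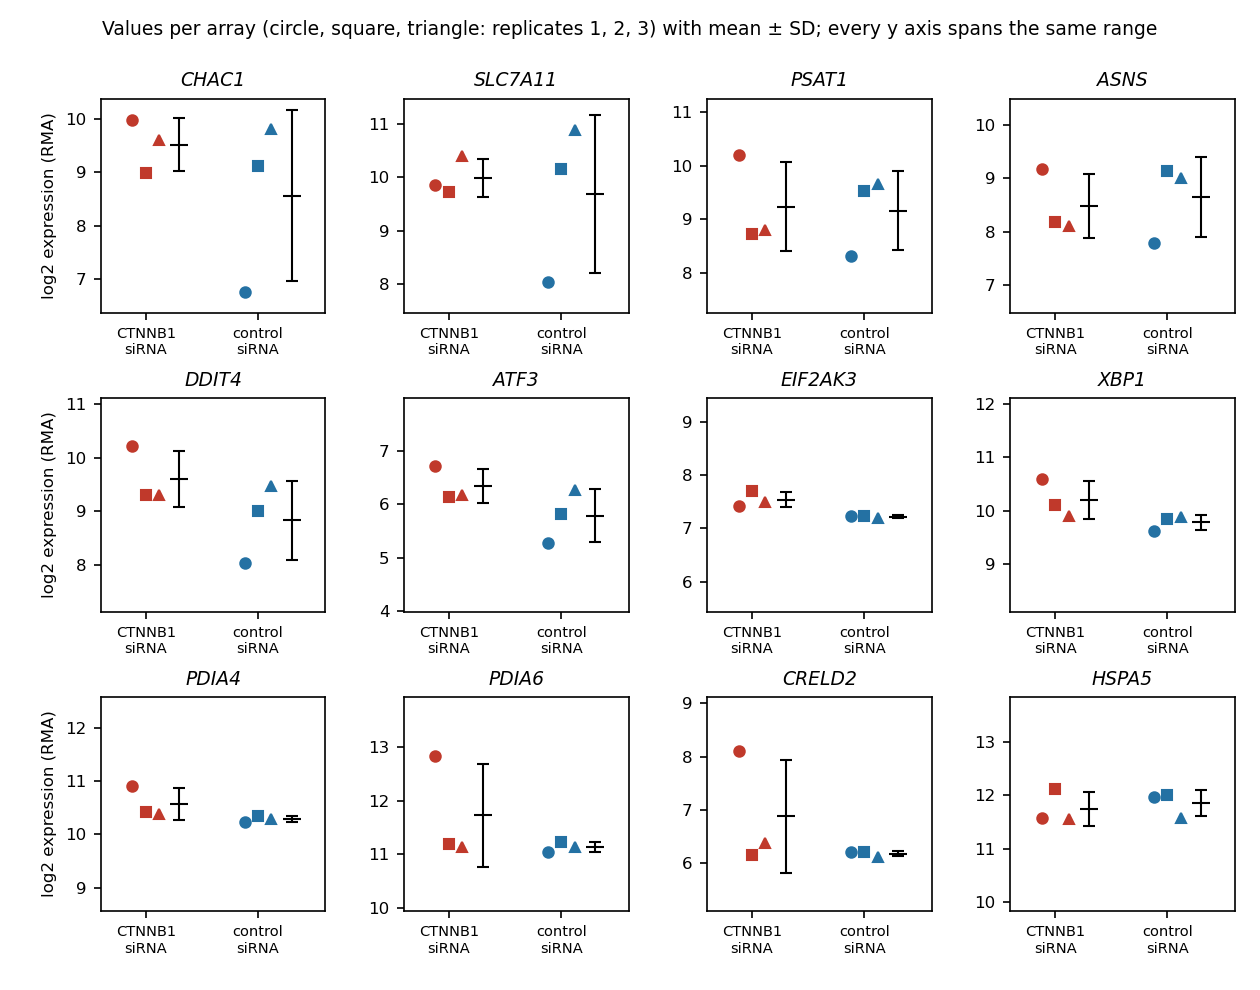
Log2 expression of 12 of the 32 genes on each array, CTNNB1 siRNA on the left in red and control siRNA on the right in blue, with the mean and SD of 3 arrays beside the points. CHAC1 and SLC7A11 show 1 low control array (6.76 and 8.04), PDIA6 and CRELD2 1 high CTNNB1 siRNA array (12.85 and 8.10), and EIF2AK3 a small gap between tight groups.

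The 16 ATF4-type genes deviated from their control means by 0.55, 0.0030 and 0.15 on average on CTNNB1 siRNA replicates 1 to 3, against -0.55, 0.14 and 0.41 on control siRNA replicates 1 to 3. For the 16 ER genes the mean was 0.31, 0.13 and -0.055 on the CTNNB1 siRNA arrays and 0.0050, 0.057 and -0.062 on the control arrays. So control siRNA replicate 1 was low for the ATF4 arm and near the control mean for the ER arm. That array was the lowest of the 6 for 9 of 16 ATF4-type genes and 5 of 16 ER genes, beside 20.1% of all genes. CTNNB1 siRNA replicate 1 was the highest for 10 of 16 and 8 of 16, beside 24.6% of all genes. The cause of either array's pattern was not tested.

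Further genes of the pathways, listed by function, were set beside the 32. Of 28 measured genes listed as further ATF4-type targets, 13 were higher and 15 lower after CTNNB1 siRNA (median log2 difference -0.028), 0 passed the adjusted limma test, and 1 higher and 1 lower gene had an unadjusted p under 0.05, beside 5.64% of all clusters. FGF21, a stress hormone gene, was 4.71, 4.82 and 4.81 against 4.26, 4.25 and 4.58, in the dim range (log2 difference 0.42, unadjusted p = 0.0220). ATF5, a bZIP factor translated like ATF4, was 6.20, 6.63 and 6.61 against 7.77, 6.79 and 6.88 (-0.66, unadjusted p = 0.0403), and -0.35 without control siRNA replicate 1. EIF4EBP1, a translation repressor gene, differed by -0.31. Groups were apart for each of FGF21, ATF5 and EIF4EBP1. Over the list this held for 1 higher and 3 lower of the 28 genes, beside 6.81% and 6.8% of all clusters. These 28 genes averaged 0.028, -0.021 and 0.028 on the CTNNB1 siRNA arrays and -0.50, 0.24 and 0.27 on the control arrays, so control siRNA replicate 1 was low here as well.

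Only 27 of 18417 genes had control siRNA replicate 1 as their lowest array by at least 1 on the log2 scale. They included 2 of the 32 genes, CHAC1 and SLC7A11, and 5 of the 28 further ATF4-type targets. Those 5, named after their values were seen, were CTH, an enzyme of cysteine synthesis, the growth factor gene GDF15, KLHL24, PCK2 and TXNIP. GDF15 was 11.18, 11.53 and 11.35 on the CTNNB1 siRNA arrays and 9.87, 11.25 and 11.31 on the control arrays. The immediate early genes EGR1 and FOS, the growth factor gene HBEGF, and DUSP6 were among the other genes with this gap. They too were named after their values were seen. EGR1 was 9.41, 10.30 and 10.74 against 7.56, 10.00 and 10.34.

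The 19 measured cytosolic aminoacyl-tRNA synthetase genes, many of them raised by ATF4, were higher for 10 and lower for 9 (median 0.00039). In limma 0 had an unadjusted p under 0.05, beside 5.64% of all clusters. FARSB had the smallest p (log2 difference -0.27, groups apart), followed by WARS1 (-0.28) and SARS1 (0.45). Groups were apart for 0 higher and 1 lower of the 19 genes, beside 6.81% and 6.8% of all clusters. Without CTNNB1 siRNA replicate 1, WARS1 came to -0.089 and SARS1 to 0.15, and without control siRNA replicate 1 SARS1 came to 0.14. SARS1 was 10.73, 9.82 and 9.87 against 9.08, 10.13 and 9.87, so its replicates 1 again sat at both ends. The element TGATGNAA was in 33.3% of the 21 windows of these genes. The 18 genes listed around eIF2, which are its subunits, kinases, exchange factor eIF2B, phosphatase subunits and the related GCN1, IMPACT and EIF2A, were higher for 9 and lower for 9 (median -0.0096). PPP1R15B, the constitutive eIF2 phosphatase subunit, was 10.32, 10.31 and 10.25 against 9.75, 10.15 and 10.08, with groups apart (0.30, unadjusted p = 0.0856), and its difference was 0.18 without control siRNA replicate 1. In this list groups were apart for 1 higher and 0 lower of the 18 genes, beside the same shares of all clusters. EIF2B4 differed by -0.33, by -0.17 without CTNNB1 siRNA replicate 1 and by -0.15 without control siRNA replicate 1. EIF2S2 differed by -0.27, and by -0.058 without CTNNB1 siRNA replicate 1.

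Of 28 further ER folding genes, 17 were higher and 11 lower (median 0.060). UGGT2, a glycoprotein folding sensor gene, differed by -0.38, SIL1, an exchange factor of BiP, by 0.34 and MYDGF by 0.37, each with groups apart and none past an unadjusted p of 0.05. Non-overlap held for 2 higher and 1 lower of the 28 genes, beside 6.81% and 6.8% of all clusters. Without CTNNB1 siRNA replicate 1, UGGT2 came to -0.23, SIL1 to 0.22 and MYDGF to 0.090. Of 20 further degradation genes, 7 were higher and 13 lower (median -0.060), with UBE2J1 at -0.56, DERL1 at -0.41 and MAN1B1 at 0.20. Without the same array, UBE2J1 came to -0.19, DERL1 to -0.078 and MAN1B1 to 0.12. Of 19 genes of further signalling, 9 were higher and 10 lower (median -0.021). NFYC, a subunit of the factor that binds CCAAT, averaged 7.75 ± 0.23 after CTNNB1 siRNA and 8.17 ± 0.20 after control siRNA (-0.42, unadjusted p = 0.0437), BAK1 differed by 0.43 and MBTPS2, a protease that frees ATF6, by -0.29. BAK1 came to 0.65 without control siRNA replicate 1 and 0.19 without control siRNA replicate 2, and MBTPS2 to -0.16 without CTNNB1 siRNA replicate 1. In these 3 lists limma passed 0 genes after adjustment and 1, NFYC, before it, beside 5.64% of all clusters.

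Heat shock genes, mostly cytosolic chaperones and their cofactors, were set beside the ER arm. The list also holds the mitochondrial HSPD1 and HSPE1 and the ER chaperone gene SERPINH1. Of 18 measured, 5 were higher and 13 lower (median -0.082), with 0 past the adjusted limma test and 2 at an unadjusted p under 0.05, beside 5.64% of all clusters. HSPB8, a small heat shock protein gene, was 8.03, 7.46 and 7.37 against 7.17, 6.66 and 6.67, a log2 difference of 0.78 (SE 0.23) with groups apart (limma adjusted p = 0.816). HSPA4L differed by -0.72, and by -0.40 without CTNNB1 siRNA replicate 1. CHORDC1 differed by -0.49, by -0.23 without CTNNB1 siRNA replicate 3 and by -0.30 without control siRNA replicate 1. Control siRNA replicate 1, the lowest array for most ATF4-type genes, was the highest for 11 of these 18 genes and the lowest for 0, beside 17.9% and 20.1% of all genes.

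**Figure D4:**
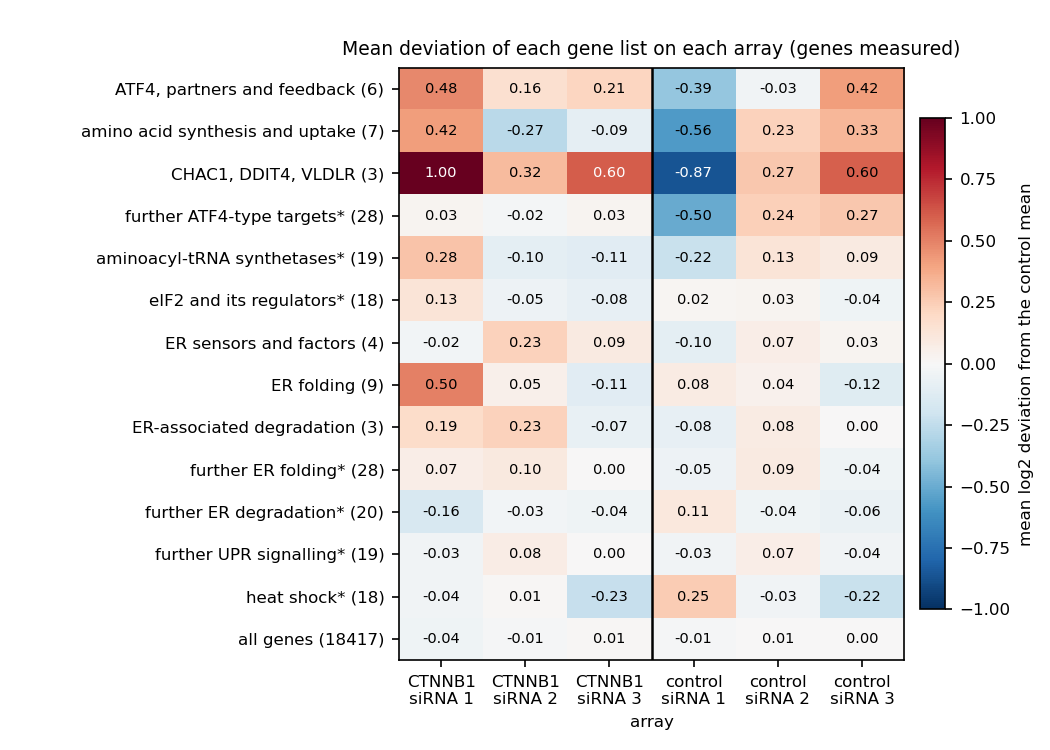
Each cell is the mean, over the genes of a list, of log2 expression minus the control mean on 1 array, with the number of genes measured in brackets and lists other than the 32 genes starred. Control siRNA replicate 1 reads -0.56 for amino acid genes, -0.50 for further ATF4-type targets and 0.25 for heat shock genes. CTNNB1 siRNA replicate 1 reads 0.50 for ER folding and 0.07 for the further ER folding genes.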

How the data were processed

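Log2 expression per transcript cluster was deposited by the authors, who, per the submitters' processing notes, ran RMA with Expression Console 1.1. The log2 scale was taken from the values. A genome build is not given in the sources used here. RNA (500 ng per sample) came from 6 arrays, 3 per siRNA; the number of arrays limits the precision. Nothing says that the replicates came from separate passages, so a p-value here reflects only how these samples vary, which may be technical.

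Of 33297 clusters, 19460 were paired with exactly 1 symbol and tested, covering 18417 genes; for 19429 the symbol was updated through RefSeq gene identifiers (GRCh38.p14). The highest-mean cluster stood for a gene. Groups were compared with limma 3.58.1 (lmFit, eBayes; R 4.3.3), 2-sided, with Benjamini-Hochberg adjustment over all tested clusters and a threshold of 0.05. The procedure was tested on simulated data. The 32 genes and all gene lists were chosen with earlier results of these data known. All 32 genes are named, with up to 3 genes of smallest p from each further list; others are marked where they appear. Alternatives were an intensity trend, array weights, a filter on dim clusters, median centring, the lowest-mean cluster, a replicate block and each array left out.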

Additional observations from a re-analysis of the deposited data

How the results depend on the processing

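In all 13 alternatives tried, limma passed 0 of the 32 genes after adjustment; the smallest adjusted p of a member was 0.141, for ASNS without both arrays numbered 1, the alternative chosen after seeing the data. The count at an unadjusted p under 0.05, 1 with all arrays, was 0 with an intensity trend, without dim clusters, with median centring and with the replicate block, 0 to 3 when 1 array was left out, and 5 without both arrays numbered 1 (ASNS, SLC7A5, PSAT1, SHMT2 and EIF2AK3). The count over all 19460 clusters moved too. It was 1098 with all arrays, 695 to 1428 when 1 array was left out, and 1458 without both arrays numbered 1. The median of the ATF4-type genes was -0.13 without both arrays numbered 1, -0.044 with array weights and 0.031 to 0.39 when 1 array was left out, and that of the ER genes 0.0078 to 0.24 when 1 array was left out. CTNNB1 differed by -1.12 with array weights, where it passed (adjusted p = 0.0219). Signs turned for 12 genes without both arrays numbered 1: ATF4 -0.27, CHAC1 -0.175, DDIT3 -0.078, ERN1 0.0046, HSPA5 0.045, PDIA6 -0.018, PSAT1 -0.83, SDF2L1 -0.084, SEL1L -0.024, SLC3A2 -0.29, SLC7A11 -0.46 and TRIB3 0.060. With array weights 11 turned: ATF4 -0.091, DDIT3 -0.085, ERN1 0.015, HSP90B1 0.034, HSPA5 0.061, PHGDH -0.0027, PSAT1 -0.51, SDF2L1 -0.071, SLC3A2 -0.16, SLC7A11 -0.10 and TRIB3 0.013. The lowest-mean cluster of ATF4 gave -0.052. With 1 array left out, the range crossed 0 for ASNS (-0.59 to 0.089), CEBPB (-0.066 to 0.49), DNAJC3 (-0.18 to 0.30), ERN1 (-0.072 to 0.058), HSP90B1 (-0.080 to 0.096), PHGDH (-0.023 to 0.084), PSAT1 (-0.40 to 0.34), SDF2L1 (-0.25 to 0.51), SEL1L (-0.024 to 0.21), SLC3A2 (-0.19 to 0.39), SLC7A11 (-0.53 to 0.90), SLC7A5 (-0.28 to 0.032) and TRIB3 (-0.11 to 0.058). The cause of these changes was not tested. Deviations of same-numbered arrays from their group means correlated at 0.0922, 0.120 and 0.0980 across clusters; each array correlated best with its own number, a hint from the data and not the design. With each replicate number once in each group, the replicate block leaves every log2 difference as it was. It could therefore turn no sign, and the lack of turned signs tells nothing about pairing. Dim signal limits TRIB3, PHGDH and VLDLR, which the filter on dim clusters removed.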
